A study of Sus scrofa with 20 samples.

Results

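Uteri of sows inseminated with the FR3 ejaculate were compared with uteri of sows left without insemination, 6 days after the onset of estrus. FR3 semen contained the rich, the intermediate and the poor fraction of the boar ejaculate. The comparison took every library whose column carried the FR3 or the CONTROL name, which gave 5 libraries against 5, 10 of the 20 in the series, and every row with a gene name, 30345 in all. FR1 uteri had received the rich fraction alone and FR2 uteri the rich and intermediate fractions, with 5 sows in each of these groups too. All sows were wild-type Large White by Landrace crosses of the Danbred line, picked at weaning by parity and condition and allotted at random. The semen came from 3 Pietrain boars, each giving an ejaculate of every kind, with the pre-sperm phase and the gel left out. Which boar served which sow was not given. Insemination was post-cervical, from the onset of estrus and daily while standing heat lasted. The control sows came from the same farm and received no semen. Polyadenylated RNA came from dissected uterine horn tissue rinsed in saline, without a stated separation of endometrium from muscle, so each library mixes several cell types. Embryos were looked for at collection, but their numbers are not used here: contact with semen and the presence of early embryos cannot be told apart in this comparison.

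In the pig, semen is deposited directly in the uterus, where seminal plasma and sperm meet the epithelium and set off a short inflammatory response that is cleared within days. The boar ejaculates in portions: the rich fraction carries most of the sperm, and the later portions carry mostly fluid of the accessory glands. By the day studied the corpora lutea secrete progesterone, the blastocysts of a pregnant sow lie free in the uterine lumen, and the luminal and glandular epithelium secretes histotroph, the mixture of proteins and nutrients on which the embryos live.

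The libraries held 32981897 to 62942693 estimated counts in FR3 uteri and 39924699 to 50862440 in control uteri. FR3 libraries were more like each other than control libraries, with a mean Spearman correlation across genes of 0.951 within FR3 and 0.902 within control. Of the markers of epithelium, stromal fibroblasts, smooth muscle and endothelium, none was at 0 in all 10 libraries. Libraries differed in tissue makeup. FR3_4 had the lowest epithelial marker level, at a mean of 5.68 log2 CPM (CPM is counts per 1000000 counts of the library, after TMM scaling), where the other FR3 libraries lay between 6.98 and 7.26 and the controls between 7.10 and 7.72. CONTROL_1 had the lowest smooth muscle marker level, at 6.61 log2 CPM, where the other controls lay between 10.0 and 11.3. Within the FR3 group, FR3_4 and FR3_5 were at 11.0 and 10.5 log2 CPM in smooth muscle markers, where the other FR3 libraries lay between 8.77 and 9.08. In stromal markers FR3_4 and FR3_5 were at 8.72 and 8.40 log2 CPM, where the other FR3 libraries lay between 6.92 and 7.72. In endothelial markers FR3_4 was the highest of the 10 libraries, at 5.49 log2 CPM, where the other FR3 libraries lay between 3.40 and 4.67. Without FR3_4 and FR3_5, edgeR called 400 genes higher and 317 lower in FR3 uteri. The library name of 1 FR3 sow ended in 2r, where all other names in the series ended in 1r, and its column is not known. In such bulk tissue, fewer cells of a type and less RNA per cell cannot be told apart.

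Of 17745 genes tested, 758 (4.27%) differed between FR3 and control uteri at an adjusted p below 0.05. Of these, 253 (1.43%) were higher and 505 (2.85%) were lower in FR3 uteri. The median log2 change was 1.30 among the higher genes and -1.71 among the lower ones, against -0.05 over all genes tested, and 543 of the called genes changed by at least 1 on the log2 scale. The higher genes included the basement membrane gene FREM1, the Toll-like receptor helper TRIL and the hedgehog target GLI1. The lower genes included CYP24A1, which inactivates vitamin D, the hemidesmosome collagen COL17A1 and 8 of 20 endoplasmic reticulum chaperones. Each of these 8 chaperone calls was lost in at least 1 of the fits that left out a library.

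All 5 FR3 libraries lay on one side of all 5 controls in 247 of the called genes, 111 higher and 136 lower. Over all genes tested, 388 (2.19%) were separated in that way, 179 (1.01%) higher and 209 (1.18%) lower. Among the 505 lower genes, 241 were overlapped by exactly 1 control, and in 160 of them that control was CONTROL_5. Among the 253 higher genes, 93 were overlapped by exactly 1 control, CONTROL_5 in 33 and CONTROL_1 in 31. Among the called genes, CONTROL_5 was thus the control that most often overlapped the FR3 libraries on its own, though by little over CONTROL_1 among the higher ones. Overlap by single controls was not counted over all genes tested.

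The number of calls moved with the libraries and the error model. With edgeR fitted to the 10 libraries alone, 0 genes were called, although 2182 had an unadjusted p below 0.05 and the lowest adjusted p was 0.211. A limma-voom fit with a spread per group also called 0 genes, with 2101 at an unadjusted p below 0.05. Limma-voom with 1 spread called 167 higher and 128 lower genes, so that 56.6% of its calls were higher, against 33.4% in the edgeR fit of all 20 libraries. DESeq2 called 693 higher and 1183 lower. Without CONTROL_5 the edgeR count was 1891, without CONTROL_1 it was 1385, without CONTROL_4 441, without FR3_5 362 and without CONTROL_3 234. It fell to 75 without FR3_1 and to 58 without FR3_2. Across the 10 fits that each left out 1 library, 51 genes (0.287%) were called every time, 25 higher and 26 lower. The genes described in full here come from these 51, unless stated otherwise. Their calls came from the fit of all 20 libraries, in which the 4 groups share a spread, and none of them was called in the fit of the 10 libraries alone.

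The named genes that were higher in FR3 uteri included 3 of the matrix and the cell surface. FREM1, a basement membrane protein of the Fraser complex (gene ID 100514332), was at 12, 6.68, 5.46, 3.65 and 2.03 CPM in FR3 uteri, against 0.168, 1.1, 0.298, 0.273 and 0.949 CPM in control uteri. The lowest FR3 library was above the highest control, and the groups did not overlap (log2 3.42 ± 0.53 SE, edgeR adjusted p = 0.0106). SPON1 (F-spondin, a secreted matrix protein; gene ID 100516954) had 184, 54.5, 81.9, 143 and 104 CPM in FR3 uteri, against 12.1, 35.1, 15.6, 9.04 and 46.8 CPM in control uteri. FR3_2 and CONTROL_5 were the nearest to each other, still without overlap (log2 2.26 ± 0.43 SE, edgeR adjusted p = 0.0162). MEGF9, a membrane protein with EGF-like repeats, ranged over 37.9 to 60.9 CPM in FR3 uteri, against 13.9 to 26.4 CPM in control uteri (log2 1.17 ± 0.21 SE, edgeR adjusted p = 0.0129).

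Named genes with a role in signalling were also higher. TRIL, a leucine-rich repeat protein that assists Toll-like receptors 4 and 3 (gene ID 100515456), was at 9.07, 10.8, 30.3, 26.8 and 23 CPM in FR3 uteri, against 1.65, 2.53, 0.183, 0.671 and 4.28 CPM in control uteri. FR3_3, FR3_4 and FR3_5 were the highest, CONTROL_5 was the highest control, and the groups did not overlap (log2 3.42 ± 0.57 SE, edgeR adjusted p = 0.0106). CCL26 (eotaxin-3, in humans a chemokine for eosinophils; gene ID 780409) was at 5.95, 7.86, 10.2, 3.00 and 7.58 CPM in FR3 uteri, against 0.985, 0.537, 1.83, 0.608 and 1.3 CPM in control uteri. Every FR3 library was above every control, FR3_4 by the least (log2 2.71 ± 0.46 SE, edgeR adjusted p = 0.0106). MRAS, a small GTPase of the Ras family (gene ID 100621398), had 29, 24.2, 33.4, 42.5 and 30.9 CPM in FR3 uteri, against 10.9, 15.4, 6.26, 11.4 and 12.7 CPM in control uteri, again without overlap (log2 1.50 ± 0.23 SE, edgeR adjusted p = 0.0106).

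Enzymes and a few other proteins made up the rest. ACPP (acid phosphatase of the prostatic type, an ectoenzyme; gene ID 100302507) was at 12.2, 12.1, 7.03, 8.99 and 7.88 CPM in FR3 uteri, against 0.147, 0.664, 1.33, 0.985 and 2.55 CPM in control uteri. The groups did not overlap, CONTROL_5 was the highest control and CONTROL_1 the lowest (log2 3.08 ± 0.50 SE, edgeR adjusted p = 0.0106). FECH, ferrochelatase, which inserts iron into heme (gene ID 100322873), was at 126, 81.7, 81.7, 62.4 and 63.8 CPM in FR3 uteri, against 28.4, 34.3, 28.5, 24.7 and 39.9 CPM in control uteri. FR3_1 was the highest library, and all FR3 libraries were above all controls (log2 1.41 ± 0.24 SE, edgeR adjusted p = 0.0106). AGBL2, a carboxypeptidase that acts on tubulin, was at 63.9, 75.7, 64.7, 30.4 and 61.6 CPM in FR3 uteri, against 26.2, 25.8, 18.4, 14.3 and 31.7 CPM in control uteri. Here the groups overlapped: FR3_4 was below CONTROL_5, while the other 4 FR3 libraries were above every control (log2 1.35 ± 0.25 SE, edgeR adjusted p = 0.0162). The synuclein-binding protein SNCAIP ranged over 4.19 to 23.7 CPM in FR3 uteri, against 1.19 to 2.6 CPM in control uteri (log2 2.57 ± 0.46 SE, edgeR adjusted p = 0.0129). The Rab GTPase RAB32 changed by 1.27 ± 0.24 (adjusted p = 0.0162 by edgeR), TTC23 by 1.70 ± 0.28 (adjusted p = 0.0106) and RWDD2A by 1.03 ± 0.19 (adjusted p = 0.0156) on the log2 scale, all with no overlap between the groups.

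**Figure D1:**
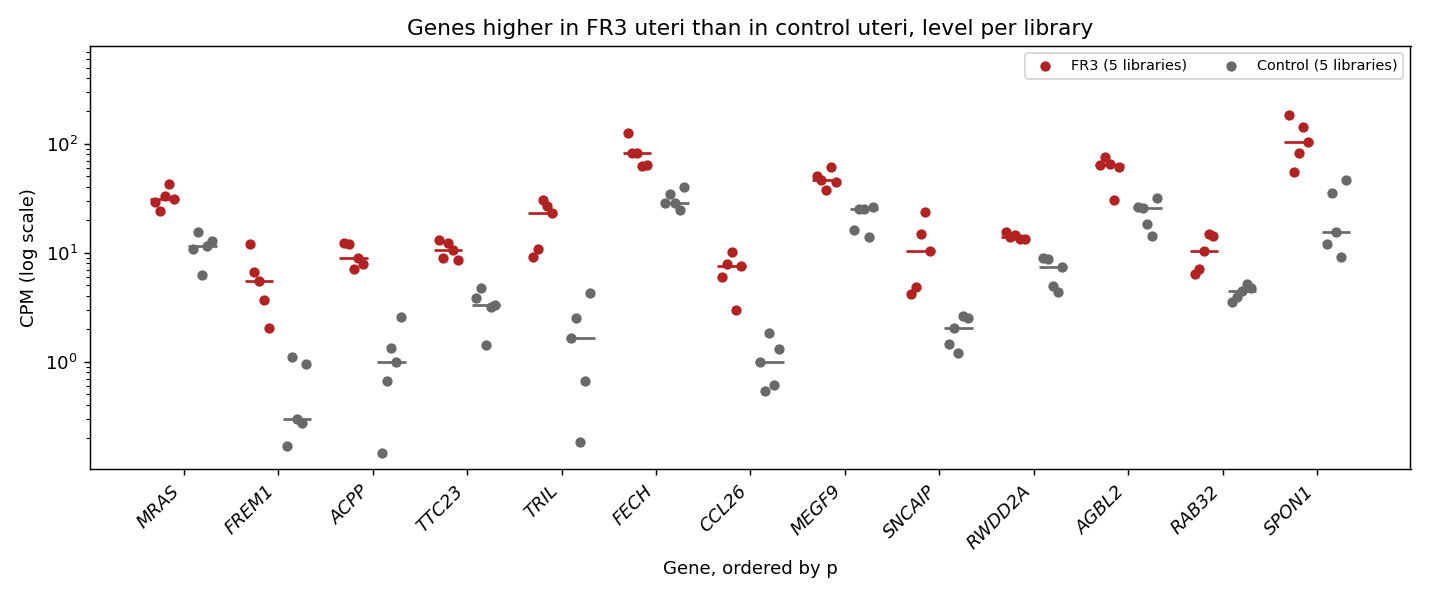
CPM on a log axis for 13 higher genes, ordered by p, with 5 FR3 libraries (left, red) and 5 control libraries (right, grey) per gene and a bar at each median. In 12 of the 13 genes every FR3 point lies above every control point, the exception being AGBL2, where FR3_4 at 30.4 CPM is below CONTROL_5 at 31.7 CPM.

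Several named lower genes were close to undetected in FR3 uteri. CYP24A1, the hydroxylase that inactivates vitamin D (gene ID 397145), was at 0.137, 0, 0, 0 and 0.212 CPM in FR3 uteri, against 36.1, 12.8, 66.3, 45 and 0.278 CPM in control uteri. It was at 0 in 3 FR3 libraries, and 4 controls were far above every FR3 library, while CONTROL_5 was just above FR3_5 (log2 -8.95 ± 1.53 SE, edgeR adjusted p = 0.0106). With so few reads in FR3 uteri the size of that fold depends on the prior count, and it was -9.86 without FR3_5. VNN2, of the vanin family of pantetheinases (gene ID 100153984), had 0.205, 0.478, 0.197, 0.548 and 0.788 CPM in FR3 uteri, against 16.9, 114, 157, 1423 and 0.0926 CPM in control uteri. CONTROL_4 was the highest and CONTROL_5 lay below every FR3 library, so the groups overlapped (log2 -9.60 ± 1.61 SE, edgeR adjusted p = 0.0106; -7.35 without CONTROL_4). FXYD3, a regulator of the sodium pump (gene ID 397413), was at 0.501, 0.911, 0.613, 0.339 and 0.636 CPM in FR3 uteri, against 11, 46.3, 256, 42.2 and 2.52 CPM in control uteri. All controls were above all FR3 libraries, CONTROL_5 by the least and CONTROL_3 by the most (log2 -6.90 ± 1.17 SE, edgeR adjusted p = 0.0106; -5.44 without CONTROL_3).

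Named genes of cell attachment and the cell surface were also lower. COL17A1, the transmembrane collagen of hemidesmosomes (gene ID 414914), was at 1.94, 1.8, 1.12, 0.516 and 4.27 CPM in FR3 uteri, against 21.7, 32.2, 295, 1060.4 and 1.81 CPM in control uteri. CONTROL_4 and CONTROL_3 were the highest, and CONTROL_5 fell within the FR3 range (log2 -7.21 ± 1.27 SE, edgeR adjusted p = 0.0129; -5.52 without CONTROL_4). MPZL2, an epithelial adhesion protein of the immunoglobulin family (gene ID 100513488), had 1.37, 2.07, 2.08, 1.16 and 4.12 CPM in FR3 uteri, against 30.6, 24, 50.2, 37.2 and 3.2 CPM in control uteri. The first 4 controls were above every FR3 library and CONTROL_5 was below FR3_5 (log2 -3.75 ± 0.59 SE, edgeR adjusted p = 0.0106). B3GNT7, a glycosyltransferase that acts on keratan sulfate chains (gene ID 100737088), had 0.729, 2.07, 4.25, 3.58 and 2.67 CPM in FR3 uteri, against 5.87, 28, 173, 157 and 5.58 CPM in control uteri. CONTROL_3 and CONTROL_4 were the highest, and no control reached down into the FR3 range (log2 -4.79 ± 0.83 SE, edgeR adjusted p = 0.0107). OLFM2, a secreted olfactomedin protein, had 6.54, 8.52, 9.6, 14.9 and 13.4 CPM in FR3 uteri, against 72.1, 44.8, 69.2, 87.4 and 9.49 CPM in control uteri, with CONTROL_5 inside the FR3 range (log2 -2.42 ± 0.38 SE, edgeR adjusted p = 0.0106).

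A further group of lower genes acts in growth signalling. MST1R (RON, the receptor tyrosine kinase for macrophage-stimulating protein; gene ID 100626292) was at 5.86, 8.54, 4.1, 7.78 and 7.49 CPM in FR3 uteri, against 26, 43.4, 148, 32.4 and 7.78 CPM in control uteri. CONTROL_3 was the highest and CONTROL_5 lay among the FR3 libraries (log2 -2.93 ± 0.50 SE, edgeR adjusted p = 0.0106; -2.03 without CONTROL_3). ETV4, an ETS transcription factor induced by receptor tyrosine kinase signalling (gene ID 100516755), had 1.14, 1.69, 2.04, 3.19 and 2.67 CPM in FR3 uteri, against 9.32, 60.1, 39.4, 48.8 and 1.94 CPM in control uteri. CONTROL_5 again lay within the FR3 range, and the other 4 controls were above it (log2 -3.89 ± 0.62 SE, edgeR adjusted p = 0.0106). PHLDA2, an imprinted gene known for limiting placental growth (gene ID 100379631), was at 4.4, 8.16, 7.97, 5.68 and 7.21 CPM in FR3 uteri, against 16.5, 57.3, 270.1, 52.3 and 13.1 CPM in control uteri, without overlap (log2 -3.61 ± 0.63 SE, edgeR adjusted p = 0.0107; -2.40 without CONTROL_3). PRR5, a subunit of the kinase complex mTORC2 (gene ID 100152201), had 13.7, 14.1, 21.1, 12.7 and 14.3 CPM in FR3 uteri, against 36.8, 35.7, 57.6, 50.7 and 24.3 CPM in control uteri. These groups did not overlap either, and FR3_3 was the highest FR3 library (log2 -1.43 ± 0.22 SE, edgeR adjusted p = 0.0106).

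Of the remaining lower genes, HDAC10, a deacetylase that acts on polyamines, was at 20.4, 17, 13.6, 15 and 17.5 CPM in FR3 uteri, against 40.7, 28.8, 33.9, 42 and 27.8 CPM in control uteri. Every control was above every FR3 library (log2 -1.05 ± 0.17 SE, edgeR adjusted p = 0.0106). HACD4, a dehydratase of very-long-chain fatty acid synthesis, had a log2 change of -3.18 ± 0.54 (edgeR adjusted p = 0.0106), and UNC5CL, a death-domain protein that activates NF-kappa B, had one of -2.89 ± 0.50 (adjusted p = 0.0107). In both, CONTROL_5 lay within the FR3 range. Among these 14 lower genes, 8 were overlapped by a control, and in each of the 8 it was CONTROL_5 and no other.

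**Figure D2:**
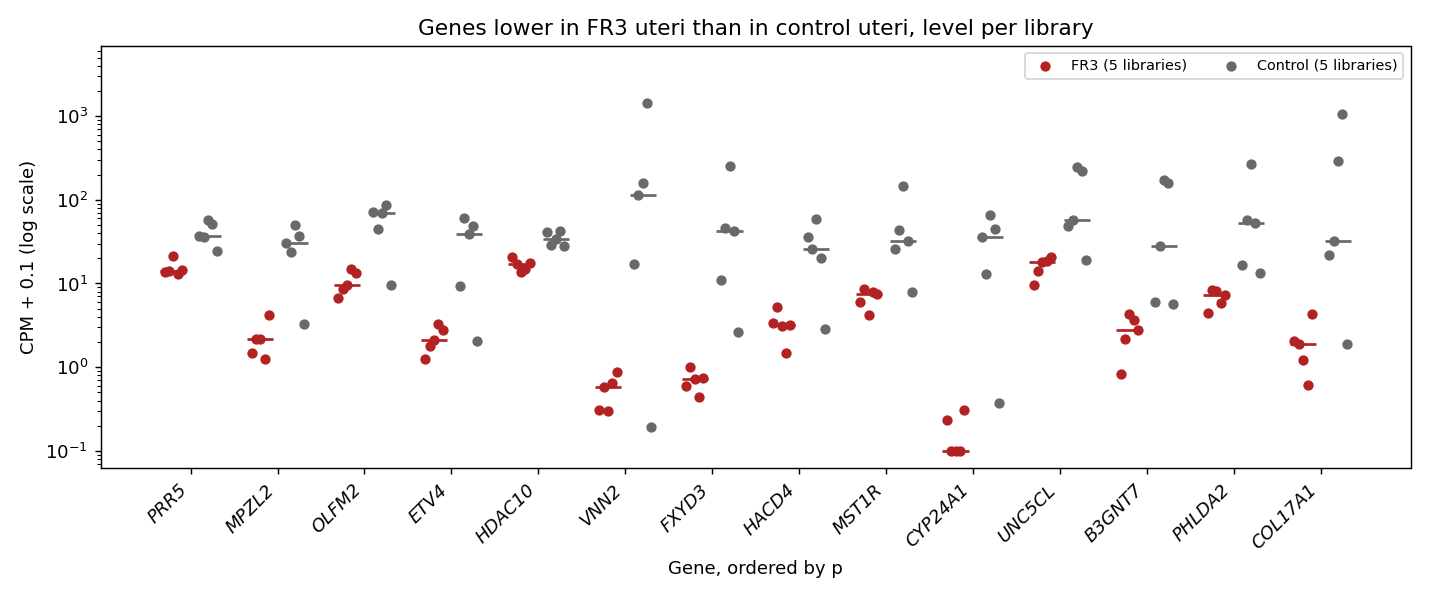
CPM plus 0.1 on a log axis for the 14 lower genes, ordered by p, with 5 FR3 libraries (left, red) and 5 control libraries (right, grey) per gene and a bar at each median. The spread differs by gene: VNN2 lies between 0.197 and 0.788 CPM in FR3 uteri, against 0.0926 to 1423 CPM in control uteri, and HDAC10 between 13.6 and 20.4 CPM in FR3 uteri, against 27.8 to 42 CPM in control uteri.

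Gene lists for the cell types and pathways of the uterus held 774 different genes, of which 696 were tested, with 16 called higher and 71 called lower. Genes that stand in several lists are counted a single time in these totals. A list's count reads against the background of 1.43% of all genes called higher and 2.85% called lower. Signs in a list read against 8114 positive changes among all 17745 genes tested. A call from these lists that was not among the 51 genes above is given with each library whose absence ended it, and each of them was lost when FR3_1 or FR3_2 was left out. Of 20 epithelial markers tested, 0 were called higher and 4 lower, and 17 had a negative change (median -0.66). KRT18, a keratin of simple epithelia, was at 182, 178, 224, 110.2 and 236 CPM in FR3 uteri, against 379.6, 491, 318, 251 and 302 CPM in control uteri. All controls were above all FR3 libraries (log2 -0.90 ± 0.22 SE, edgeR adjusted p = 0.0282; not called without FR3_1 or FR3_2). ELF3, an epithelial transcription factor, had 24.4, 25.7, 18.1, 5.84 and 17.9 CPM in FR3 uteri, against 35.5, 88.9, 177, 218 and 11.3 CPM in control uteri; CONTROL_5 was inside the FR3 range (log2 -2.53 ± 0.56 SE, edgeR adjusted p = 0.0217; not called without CONTROL_3, FR3_1 or FR3_2). The others were MUC1, given with the mucins, and the membrane protease ST14 (log2 -1.48 ± 0.40 SE, edgeR adjusted p = 0.0434; not called without CONTROL_3, CONTROL_4, FR3_1, FR3_2, FR3_3, FR3_4 or FR3_5). The adhesion molecule EPCAM did not pass (log2 -0.76 ± 0.22 SE, edgeR adjusted p = 0.0582), although the groups did not overlap, at 129 to 244 CPM in FR3 uteri, against 253 to 553 CPM in control uteri. The summed level of the epithelial list was 2277 to 8194 CPM in FR3 uteri and 6543 to 9351 CPM in control uteri, and none of its markers was at 0. FR3_4 was the lowest library in it, and without FR3_4 the list had 2 lower calls. How far tissue makeup contributes to the epithelial genes was not tested.

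Stromal fibroblast markers leaned the other way, with 2 of 11 called higher, 0 lower and 10 positive changes (median 0.85). PDGFRA, a receptor for platelet-derived growth factor, was at 35.3, 62.3, 22.8, 37.6 and 75.4 CPM in FR3 uteri, against 13.9, 23.2, 13.9, 14.6 and 19.3 CPM in control uteri. CONTROL_2 was just above FR3_3, the single overlap (log2 1.46 ± 0.36 SE, edgeR adjusted p = 0.0293; not called without CONTROL_3, CONTROL_4, FR3_1, FR3_2 or FR3_5). Lumican (LUM), a collagen-binding proteoglycan, was at 191 to 591 CPM in FR3 uteri, against 67.3 to 254 CPM in control uteri (log2 1.33 ± 0.34 SE, edgeR adjusted p = 0.0363; not called without CONTROL_3, CONTROL_4, FR3_1, FR3_2, FR3_4 or FR3_5). The summed stromal level was 4638 to 17571 CPM in FR3 uteri and 1649.5 to 8661 CPM in control uteri, lowest in CONTROL_1 and highest in FR3_4. In the smooth muscle list 0 of 10 genes were called and 9 had a negative change (median -0.50), with summed levels of 5812 to 30838 CPM in FR3 uteri and 1331 to 36996 CPM in control uteri. In the endothelial list 0 of 10 were called and 9 were positive (median 0.14).

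Leukocyte lists held few calls. For neutrophils, 0 of 7 tested genes were called, summed levels were 6.52 to 26.1 CPM in FR3 uteri and 4.96 to 90.8 CPM in control uteri, and myeloperoxidase (MPO) was at 0 in all 10 libraries. The receptor for granulocyte colony-stimulating factor, CSF3R, was at 1.44 to 3.51 CPM in FR3 uteri, against 0.301 to 77.3 CPM in control uteri; its value (-2.93 ± 1.03, edgeR adjusted p = 0.108) turned positive without CONTROL_3, at 0.63. The neutrophil collagenase MMP8 did not pass (-1.73 ± 1.19, edgeR adjusted p = 0.426; -4.94 without FR3_5). Macrophage and dendritic, T and NK, and B and plasma cell lists had 0 calls among 9, 14 and 7 tested genes, with medians of -0.03, -0.27 and 0.35. The red blood cell list had 0 calls among 4 genes (median 0.79). In the mast cell and eosinophil list 1 of 5 genes was called. This was MS4A2, the beta chain of the high-affinity IgE receptor of mast cells, at 1.55, 1.25, 1.56, 3.03 and 2.03 CPM in FR3 uteri, against 0.0419, 0.102, 0.367, 0.629 and 0.949 CPM in control uteri. The groups did not overlap (log2 2.17 ± 0.59 SE, edgeR adjusted p = 0.0439), yet the call was lost without any of CONTROL_2, CONTROL_3, CONTROL_4, FR3_1, FR3_2, FR3_3, FR3_4 and FR3_5. The list had 4 positive changes and 1 negative, from -2.01 to 3.64 (median 1.70). The mean level over its tested genes was 1.21 to 2.14 log2 CPM in FR3 uteri and -0.120 to 1.13 in control uteri. Its summed level overlapped widely, at 66.0 to 1497 CPM in FR3 uteri and 65.3 to 425 CPM in control uteri. The mast cell carboxypeptidase CPA3 was at 0 in all 10 libraries.

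No sperm or testis gene was called. Of 10 such genes, PRM1, PRM2, TNP1 and ODF1 were at 0 in all 10 libraries. Of the 5 tested, 0 were called, with summed levels of 3.37 to 12.5 CPM in FR3 uteri and 6.72 to 17.1 CPM in control uteri. Of 10 early embryo genes, POU5F1, IL1B2 and PRDM14 were at 0 in all 10 libraries. IL1B2 is the interleukin 1 beta form that pig conceptuses make. Summed levels of the early embryo list were 2.03 to 9.09 CPM in FR3 uteri and 7.62 to 27.0 CPM in control uteri, whose sows received no semen. Among the 3 tested, TEAD4, a trophectoderm factor, was called lower at 0.82 to 4.3 CPM in FR3 uteri, against 2.13 to 22.5 CPM in control uteri (log2 -2.12 ± 0.51 SE, edgeR adjusted p = 0.028; not called without CONTROL_3, CONTROL_4, FR3_1 or FR3_2).

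Histotroph and receptivity genes, which encode what the uterus secretes to embryos, had 8 of 22 lower, 0 higher and 18 negative changes (median -1.24). SPP1 (osteopontin), a secreted ligand of integrins, was at 3.51, 5.03, 4.64, 8.5 and 8.88 CPM in FR3 uteri, against 3.67, 11.6, 1354, 749 and 7.32 CPM in control uteri. CONTROL_3 and CONTROL_4 were far above all other libraries, and CONTROL_1 and CONTROL_5 lay inside the FR3 range (log2 -6.12 ± 1.23 SE, edgeR adjusted p = 0.0162; -5.03 without CONTROL_3; not called without FR3_1 or FR3_2). LIF, a cytokine needed for implantation in mice, had 0.296, 0.205, 0, 0.500 and 0.333 CPM in FR3 uteri, against 0.796, 14.1, 76.4, 6.27 and 0.996 CPM in control uteri. All controls were above all FR3 libraries, but CONTROL_1 by little (log2 -6.18 ± 1.21 SE, edgeR adjusted p = 0.0162; -4.36 without CONTROL_3; not called without FR3_1 or FR3_2). The keratinocyte growth factor FGF7, in the pig a product of the uterine epithelium, was at 1.03, 1.55, 0.153, 1.63 and 1.97 CPM in FR3 uteri, against 0.272, 398, 447, 3.44 and 1.09 CPM in control uteri. CONTROL_2 and CONTROL_3 were far above all other libraries, and the other 3 controls overlapped the FR3 range or lay close to it (log2 -7.07 ± 1.48 SE, edgeR adjusted p = 0.0175; -6.32 without CONTROL_3; not called without FR3_1 or FR3_2). The secreted hormone STC1 did not pass (-4.01 ± 1.43, edgeR adjusted p = 0.109; -1.50 without CONTROL_3). The summed level of the list was 712 to 859 CPM in FR3 uteri and 816 to 21991 CPM in control uteri.

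Among retinoid and vitamin D genes 2 of 21 were higher and 2 lower (median -0.39). RBP4, the secreted retinol carrier of histotroph and plasma, was called lower at 2.37, 6.77, 38.8, 23.4 and 12.6 CPM in FR3 uteri, against 4.27, 2210.5, 13053, 30.9 and 69.9 CPM in control uteri. Both CONTROL_1 and CONTROL_4 lay inside the FR3 range. CONTROL_2 and CONTROL_3 were the highest by far, and CONTROL_1 was below 4 of the FR3 libraries (log2 -7.52 ± 1.63 SE, edgeR adjusted p = 0.0194; -5.10 without CONTROL_3; not called without CONTROL_3, FR3_1 or FR3_2). CYP24A1 was the further lower gene, as given above, and ALDH1A3, a retinaldehyde dehydrogenase, was among the higher ones at 2.02 ± 0.48 (edgeR adjusted p = 0.0276; not called without CONTROL_3, CONTROL_4, FR3_1 or FR3_2). ALDH1A3 was named after its values were seen.

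In the insulin-like growth factor system 2 of 14 genes were higher and 1 lower (median 0.49). IGFBP2, a binding protein of these factors, was at 11.2, 16.7, 11.2, 11.6 and 14.1 CPM in FR3 uteri, against 219.5, 6.52, 308, 788 and 9.49 CPM in control uteri. CONTROL_1, CONTROL_3 and CONTROL_4 were high, whereas CONTROL_2 and CONTROL_5 were below every FR3 library (log2 -4.36 ± 0.89 SE, edgeR adjusted p = 0.0172; -3.39 without CONTROL_4; not called without FR3_1 or FR3_2). STC2, a secreted inhibitor of the protease PAPP-A, which frees these factors, was at 2.78, 3.35, 0.548, 0.355 and 2.12 CPM in FR3 uteri, against 0.0419, 0.409, 0.115, 0 and 0.0695 CPM in control uteri. Levels were low throughout, and CONTROL_2 was above FR3_4 (log2 3.84 ± 0.97 SE, edgeR adjusted p = 0.033; 4.97 without CONTROL_2; not called without CONTROL_3, CONTROL_4, FR3_1, FR3_2 or FR3_5). The further higher gene was PAPPA2, a protease that cleaves IGF-binding proteins, at 1.95 ± 0.52 (edgeR adjusted p = 0.0409; 2.60 without CONTROL_5; not called without CONTROL_1, CONTROL_2, CONTROL_3, CONTROL_4, FR3_1, FR3_2, FR3_3, FR3_4 or FR3_5), named after its values were seen.

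Mucin and mucosal defence genes had 8 of 17 lower and 0 higher (median -3.47), and VNN2 was the member called without each library in turn. MUC1, the membrane mucin of the uterine surface, was at 6.54, 2.35, 5.96, 2.16 and 21.1 CPM in FR3 uteri, against 3.00, 55, 70.8, 89 and 17.4 CPM in control uteri. CONTROL_1 was near the bottom of the FR3 range and FR3_5 was above CONTROL_5 (log2 -2.63 ± 0.68 SE, edgeR adjusted p = 0.0363; -3.47 without FR3_5; not called without CONTROL_3, CONTROL_4, FR3_1, FR3_2, FR3_3 or FR3_4). The summed level of the list was 88 to 612 CPM in FR3 uteri and 487 to 8908 CPM in control uteri, highest in CONTROL_4. In the complement and acute phase list 5 of 23 were lower and 0 higher (median -0.90). CFD (complement factor D, the protease of the alternative pathway; gene ID 396877) was at 38.7, 37.2, 80.7, 38.5 and 44.7 CPM in FR3 uteri, against 68.8, 265, 849.8, 387 and 82.2 CPM in control uteri. CONTROL_1 lay below FR3_3, and the other controls were above every FR3 library (log2 -2.78 ± 0.52 SE, edgeR adjusted p = 0.0156; -2.10 without CONTROL_3). The other four, named after their values were seen, were lost in 1 or more of the fits that left out a library. SAA3, an acute phase serum amyloid, had a log2 change of -6.86 ± 1.74 (-5.11 without CONTROL_4; not called without CONTROL_3, CONTROL_4, FR3_1, FR3_2, FR3_3 or FR3_5). Complement factor B (CFB) had one of -4.57 ± 1.22 (-2.09 without CONTROL_4; not called without CONTROL_3, CONTROL_4, FR3_1, FR3_2, FR3_3, FR3_4 or FR3_5). Clusterin (CLU), a secreted chaperone that also inhibits complement, had one of -2.30 ± 0.61 (-1.16 without CONTROL_4; not called without CONTROL_3, CONTROL_4, FR3_1, FR3_2, FR3_3 or FR3_5), and ITIH4, an acute phase plasma protein, one of -1.38 ± 0.39 (not called without CONTROL_1, CONTROL_3, FR3_1, FR3_2, FR3_3 or FR3_4).

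Inflammatory cytokine and adhesion genes had 2 of 22 lower and 0 higher (median -0.76). CXCL2, a neutrophil chemokine, was at 0.433, 0.365, 0.285, 0.548 and 0.424 CPM in FR3 uteri, against 1.19, 1.02, 1.1, 34.8 and 2.69 CPM in control uteri. All controls were above all FR3 libraries, and CONTROL_4 stood alone (log2 -4.30 ± 0.92 SE, edgeR adjusted p = 0.0185; -1.86 without CONTROL_4; not called without CONTROL_4, FR3_1 or FR3_2). IL1A, an epithelial alarm cytokine, was at 0 to 0.273 CPM in FR3 uteri, against 0 to 22.9 CPM in control uteri (log2 -6.72 ± 1.59 SE, edgeR adjusted p = 0.0263; -7.87 without FR3_2; not called without CONTROL_3, FR3_1, FR3_2, FR3_3 or FR3_5). The cytokine TSLP was at 0 in all 10 libraries. Antigen presentation genes had 27 of 27 negative changes (median -0.57), but 1 call, PSMB10, an immunoproteasome subunit, at 20.0 to 34.7 CPM in FR3 uteri, against 26.7 to 99.3 CPM in control uteri (log2 -1.16 ± 0.30 SE, edgeR adjusted p = 0.0363; not called without CONTROL_3, CONTROL_4, FR3_1, FR3_2 or FR3_5). The mean level of the antigen presentation list was highest in CONTROL_3 and CONTROL_4, at 6.89 and 6.50 log2 CPM. CONTROL_1, CONTROL_2 and CONTROL_5, at 5.51, 4.95 and 5.46, lay within the FR3 range of 4.88 to 5.63 log2 CPM. Interferon response genes had 2 of 32 lower, 0 higher and a median of 0.15. These were IRF1, an interferon-induced transcription factor (log2 -1.46 ± 0.40 SE, edgeR adjusted p = 0.0433; not called without CONTROL_3, CONTROL_4, FR3_1, FR3_2, FR3_3, FR3_4 or FR3_5), and GBP2, an interferon-induced GTPase (log2 -2.06 ± 0.56 SE, edgeR adjusted p = 0.0435; -0.66 without CONTROL_3; not called without CONTROL_3, FR3_1, FR3_2, FR3_3, FR3_4 or FR3_5).

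In the Toll-like receptor list TRIL was the 1 higher gene of 20 and 1 was lower, the adaptor TICAM1 at -1.19 ± 0.32 (edgeR adjusted p = 0.0411; not called without CONTROL_2, CONTROL_3, CONTROL_4, FR3_1, FR3_2, FR3_4 or FR3_5), named after its values were seen; the median was -0.01. Among immune regulation genes 1 of 16 was higher and 0 lower (median -0.22). This was TGFB3, a transforming growth factor beta, at 13.4, 8.04, 12.7, 55.3 and 20.2 CPM in FR3 uteri, against 2.45, 10.6, 3.32, 3.00 and 8.73 CPM in control uteri. FR3_4 was the highest library and CONTROL_2 and CONTROL_5 overlapped FR3_2 (log2 1.96 ± 0.51 SE, edgeR adjusted p = 0.0363; 1.25 without FR3_4; not called without CONTROL_3, CONTROL_4, FR3_1, FR3_2, FR3_4 or FR3_5). TGFB3 was likewise the 1 call among 23 TGF-beta, activin and BMP genes (median 0.05).

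**Figure D3:**
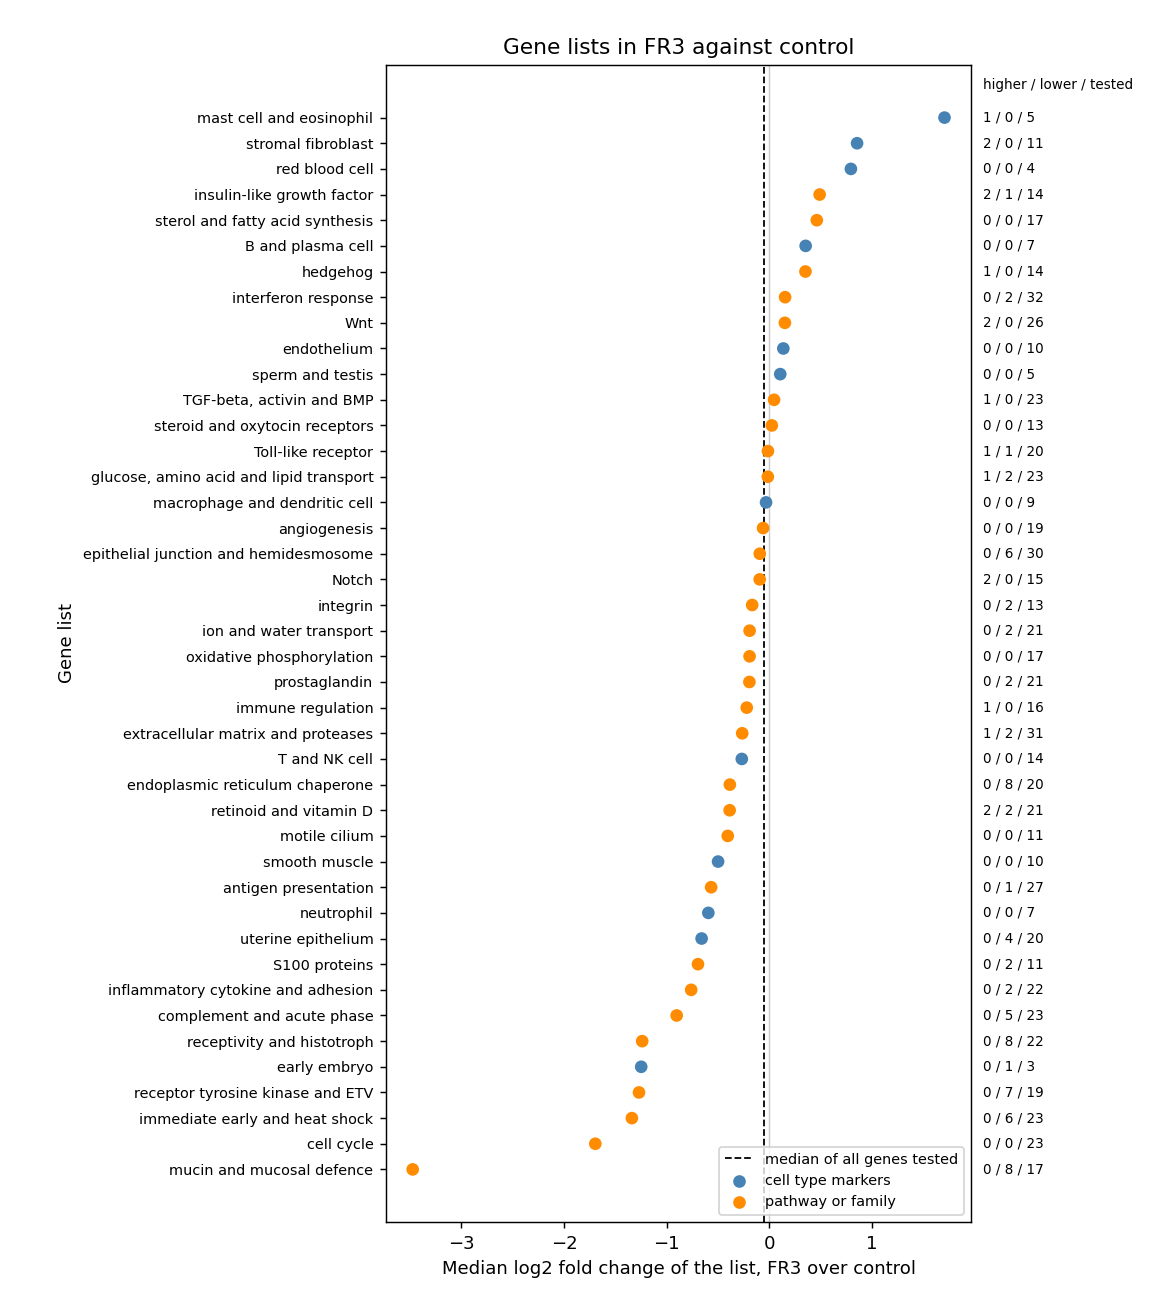
Median log2 fold change of FR3 over control for each of 42 gene lists (blue for cell type markers, orange for pathways or families), with the numbers called higher, called lower and tested at the right and a dashed line at the median of all genes tested, -0.05. The lowest medians are those of the mucin and mucosal defence list (-3.47) and the cell cycle list (-1.69), and the highest is that of the mast cell and eosinophil list (1.70).

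Epithelial junction and hemidesmosome genes had 6 of 30 lower and 0 higher (median -0.09), with MPZL2 and COL17A1 as the members called without each library in turn. Integrins had 2 of 13 lower (median -0.17). ITGB5 was at 18.1 to 42 CPM in FR3 uteri, against 36.7 to 175 CPM in control uteri (log2 -1.43 ± 0.36 SE, edgeR adjusted p = 0.0335; not called without CONTROL_3, CONTROL_4, FR3_1, FR3_2, FR3_3 or FR3_5). ITGB6, an epithelial subunit, was at 0 to 1.69 CPM in FR3 uteri, against 0.486 to 17.7 CPM in control uteri (log2 -3.58 ± 0.96 SE, edgeR adjusted p = 0.0405; not called without CONTROL_2, CONTROL_3, CONTROL_4, FR3_1, FR3_2, FR3_3 or FR3_5). In the extracellular matrix and protease list 1 of 31 was higher, FREM1, and 2 were lower (median -0.26). The lower ones were the protease MMP7 at 0 to 0.0911 CPM in FR3 uteri, against 0 to 455 CPM in control uteri (log2 -11.64 ± 2.72 SE, edgeR adjusted p = 0.0251; -6.82 without CONTROL_4; not called without CONTROL_4, FR3_1, FR3_2, FR3_3 or FR3_5) and the protease inhibitor SERPINE2 at 0.723 to 1.86 CPM in FR3 uteri, against 0.754 to 32.2 CPM in control uteri (log2 -2.91 ± 0.74 SE, edgeR adjusted p = 0.0335; -1.51 without CONTROL_3; not called without CONTROL_3, FR3_1, FR3_2, FR3_3 or FR3_5). Both were named after their values were seen, and the fold of MMP7 depends on the prior count.

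Receptor tyrosine kinase and ETV genes had 7 of 19 lower and 0 higher (median -1.27), ETV4 and MST1R among them. Ion and water transport genes had 2 of 21 lower (median -0.19), FXYD3 and its relative FXYD2 (log2 -5.08 ± 1.22 SE, edgeR adjusted p = 0.0282; -3.35 without CONTROL_3; not called without CONTROL_3, FR3_1, FR3_2, FR3_3 or FR3_5; named after its values were seen). Nutrient transport genes had 1 of 23 higher and 2 lower (median -0.02). SLC38A1, a glutamine transporter, was at 63.9, 74.7, 68.4, 72.2 and 96.7 CPM in FR3 uteri, against 22.2, 57.5, 37.2, 18.3 and 9.91 CPM in control uteri. The groups did not overlap (log2 1.37 ± 0.33 SE, edgeR adjusted p = 0.0285; not called without CONTROL_3, CONTROL_4, FR3_1, FR3_2 or FR3_5). The glutamate transporter SLC1A1 (log2 -4.12 ± 1.04 SE, edgeR adjusted p = 0.0332; -1.11 without CONTROL_3; not called without CONTROL_3, FR3_1, FR3_2, FR3_3 or FR3_5; named after its values were seen) was lower. FABP3, a fatty acid binding protein, was at 0.175 to 1.73 CPM in FR3 uteri, against 0.695 to 27.6 CPM in control uteri (log2 -3.58 ± 0.88 SE, edgeR adjusted p = 0.0298; -2.11 without CONTROL_3; not called without CONTROL_3, FR3_1, FR3_2 or FR3_3). S100 genes had 2 of 11 lower (median -0.70). S100A2, a calcium-binding protein of epithelia (gene ID 100152729), was at 36.7, 40.8, 36.1, 10.4 and 31.8 CPM in FR3 uteri, against 294, 356, 332, 337 and 21.3 CPM in control uteri. The first 4 controls were closely grouped and high, and CONTROL_5 fell inside the FR3 range (log2 -3.10 ± 0.58 SE, edgeR adjusted p = 0.0156). The other was S100A1 (log2 -1.12 ± 0.27 SE, edgeR adjusted p = 0.0283; not called without CONTROL_2, FR3_1 or FR3_2).

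Endoplasmic reticulum chaperones, which fold proteins for secretion, had 8 of 20 lower, 0 higher and 17 negative changes (median -0.39). PDIA6, a disulfide isomerase, was at 129, 126, 147, 144 and 145 CPM in FR3 uteri, against 226, 214, 282, 318 and 135 CPM in control uteri. CONTROL_5 was inside the FR3 range and the other controls above it (log2 -0.76 ± 0.17 SE, edgeR adjusted p = 0.0219; not called without CONTROL_3, FR3_1 or FR3_2). HERPUD1, induced when folding is under load, was at 34.4 to 42.3 CPM in FR3 uteri, against 41 to 83.1 CPM in control uteri (log2 -0.74 ± 0.16 SE, edgeR adjusted p = 0.0194; not called without CONTROL_3, FR3_1 or FR3_2). Immediate early and heat shock genes, which also respond to tissue handling, had 6 of 23 lower, 0 higher and 21 negative changes (median -1.34). HSPA6, an inducible chaperone, was at 2.12, 1.69, 0.657, 4.00 and 2.15 CPM in FR3 uteri, against 2.09, 47.7, 232, 40.9 and 1.83 CPM in control uteri. CONTROL_2, CONTROL_3 and CONTROL_4 were high, and CONTROL_1 and CONTROL_5 lay in the FR3 range (log2 -4.93 ± 0.97 SE, edgeR adjusted p = 0.0162; -3.45 without CONTROL_3; not called without FR3_1 or FR3_2). IER3 showed the same 3 controls high at 2.83, 1.98, 2.94, 11.3 and 4.42 CPM in FR3 uteri, against 0.796, 213, 697, 129 and 6.16 CPM in control uteri (log2 -5.47 ± 1.19 SE, edgeR adjusted p = 0.0194; -4.21 without CONTROL_3; not called without CONTROL_3, FR3_1 or FR3_2).

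Hedgehog genes, through which the uterine epithelium of mice signals to the stroma under progesterone, had 1 of 14 higher, 0 lower and 12 positive changes (median 0.35). GLI1, the transcription factor that reports active signalling (gene ID 100520490), was at 9.3, 11.2, 12.2, 35.8 and 11.3 CPM in FR3 uteri, against 1.72, 5.8, 0.734, 2.75 and 2.94 CPM in control uteri. FR3_4 was the highest library, the groups did not overlap (log2 2.52 ± 0.50 SE, edgeR adjusted p = 0.0162), and the call held without each library in turn. In stromal markers FR3_4 was also the highest of these libraries, whereas CONTROL_2 was above FR3_3. How far tissue makeup contributes to GLI1 was not tested. The ligand IHH did not pass (log2 0.98 ± 0.73 SE, edgeR adjusted p = 0.468), and neither did the receptor PTCH1 (log2 0.85 ± 0.25 SE, edgeR adjusted p = 0.0583), both named after their values were seen. Notch genes had 2 of 15 higher (median -0.09). HEYL, a transcription factor induced by Notch, was at 13.8, 16.9, 15.5, 28.1 and 23.1 CPM in FR3 uteri, against 5.36, 8.94, 3.14, 8.24 and 10.7 CPM in control uteri, without overlap (log2 1.42 ± 0.30 SE, edgeR adjusted p = 0.0175; not called without FR3_2). The receptor NOTCH1 was at 43.7 to 72.8 CPM in FR3 uteri, against 20.5 to 51.7 CPM in control uteri (log2 0.81 ± 0.21 SE, edgeR adjusted p = 0.0403; not called without CONTROL_1, CONTROL_3, CONTROL_4, FR3_1, FR3_2 or FR3_5). Wnt genes had 2 of 26 higher (median 0.15). DKK3, a secreted protein of the Dickkopf family, was at 235, 96.3, 108, 51.3 and 62 CPM in FR3 uteri, against 8.63, 41.2, 23.7, 28.6 and 18.7 CPM in control uteri, without overlap (log2 2.20 ± 0.49 SE, edgeR adjusted p = 0.0219; not called without CONTROL_3, FR3_1 or FR3_2). WNT4, a ligand needed for stromal decidualization in mice, was at 0.546 to 2.00 CPM in FR3 uteri, against 0.0209 to 0.65 CPM in control uteri (log2 2.38 ± 0.61 SE, edgeR adjusted p = 0.0361; not called without CONTROL_2, CONTROL_3, FR3_1, FR3_2 or FR3_3).

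Steroid and oxytocin receptor genes had 0 calls in 13 (median 0.02). The progesterone receptor PGR was at 15.3, 18.7, 22.7, 24.8 and 22.4 CPM in FR3 uteri, against 80.5, 16.7, 10.0, 100 and 21.7 CPM in control uteri. CONTROL_1 and CONTROL_4 were high and the other controls lay in or below the FR3 range (log2 -1.14 ± 0.46 SE, edgeR adjusted p = 0.159; -0.64 without CONTROL_4). The estrogen receptor ESR1 was at 184 to 359 CPM in FR3 uteri, against 98.2 to 379.8 CPM in control uteri (log2 0.02 ± 0.28 SE, edgeR adjusted p = 0.973), and its sign turned under several alternatives. The oxytocin receptor OXTR did not pass (log2 -1.89 ± 0.87 SE, edgeR adjusted p = 0.216; -0.48 without CONTROL_2). In the prostaglandin list 2 of 21 were lower and 0 higher (median -0.19). PTGES2, a prostaglandin E synthase, was at 21.6, 19, 24.5, 16.6 and 25.1 CPM in FR3 uteri, against 47.9, 23.8, 56.4, 46.2 and 31.1 CPM in control uteri. CONTROL_2 was inside the FR3 range (log2 -0.94 ± 0.21 SE, edgeR adjusted p = 0.0219; not called without CONTROL_3, FR3_1 or FR3_2). CBR2, in the pig a carbonyl reductase, was at 0.82 to 3.49 CPM in FR3 uteri, against 0.314 to 282 CPM in control uteri (log2 -5.06 ± 1.32 SE, edgeR adjusted p = 0.0374; -2.33 without CONTROL_3; not called without CONTROL_3, FR3_1, FR3_2, FR3_3, FR3_4 or FR3_5). Cyclooxygenase 2 (PTGS2) did not pass (log2 -3.22 ± 1.54 SE, edgeR adjusted p = 0.234; -2.49 without CONTROL_3).

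Several further lists held no call. All 23 cell cycle genes had a negative change (median -1.69). Their mean level was 2.11 to 3.47 log2 CPM in FR3 uteri. Among controls it was 5.90 and 5.04 log2 CPM in CONTROL_1 and CONTROL_4 and 0.867 to 1.79 in the other 3, so the controls lay on both sides of the FR3 libraries. Sterol and fatty acid synthesis genes had 14 of 17 positive changes (median 0.46), with FR3_4 as the lowest library. Angiogenesis genes had 0 calls in 19 (median -0.06), and the vascular growth factor VEGFA did not pass (log2 -1.02 ± 0.60 SE, edgeR adjusted p = 0.342; -0.38 without CONTROL_3). Motile cilium genes had 0 calls in 11 (median -0.41) and oxidative phosphorylation genes 0 in 17 (median -0.19). All 0 counts here are by edgeR.

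**Figure D4:**
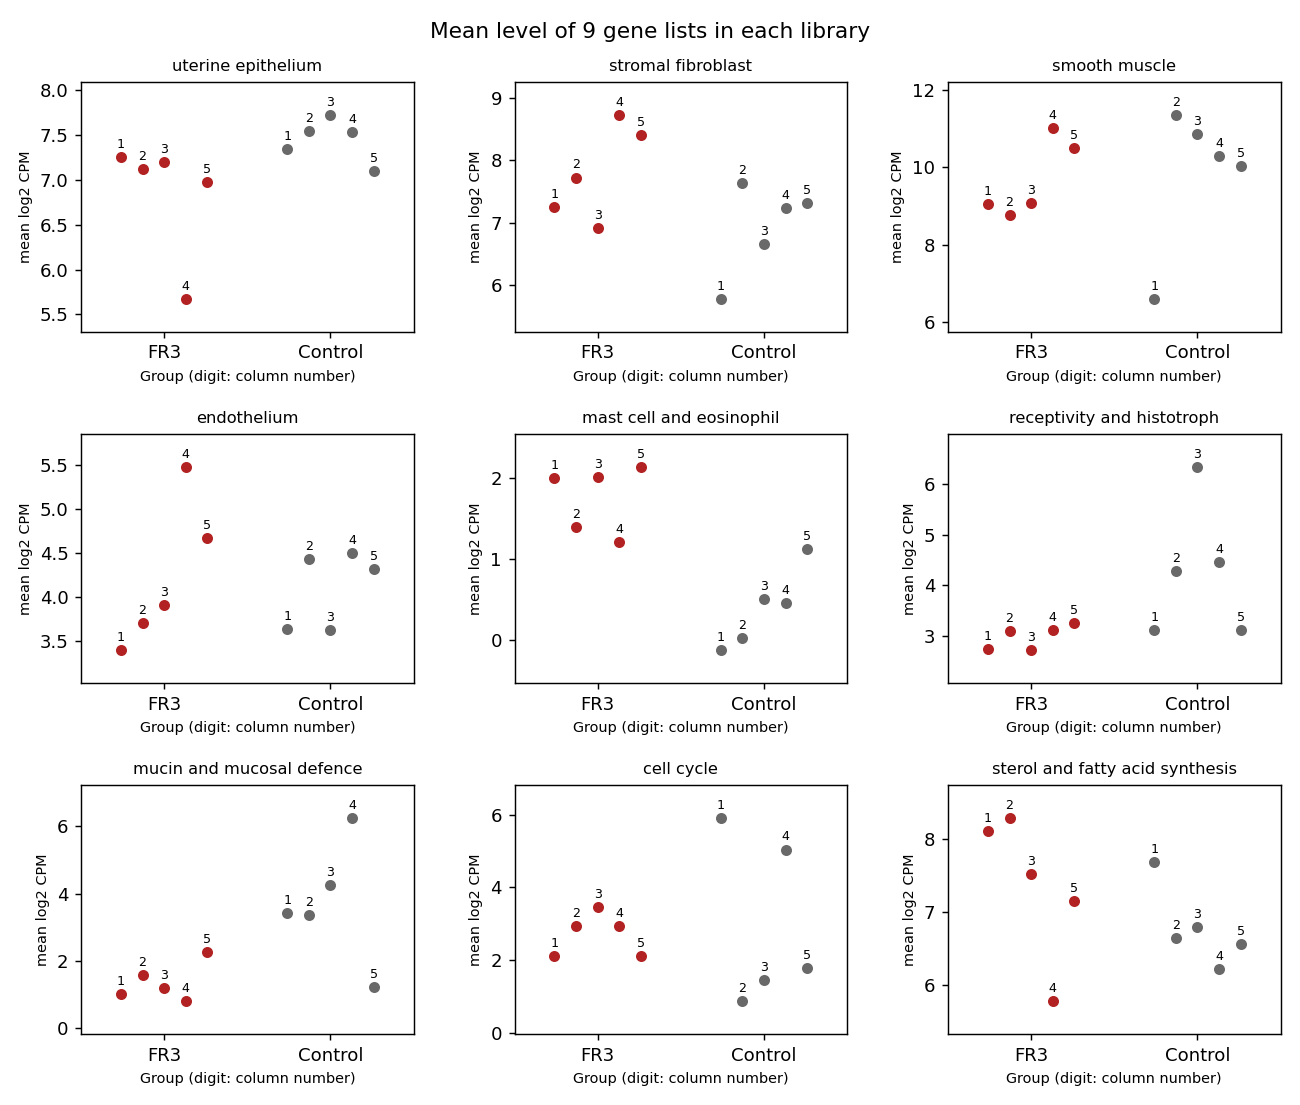
Mean log2 CPM of 9 gene lists in each library, FR3 at the left (red) and control at the right (grey), each point with its column number. FR3_4 is lowest in epithelium at 5.68, CONTROL_1 is lowest in smooth muscle at 6.61, and in the histotroph list CONTROL_3 is highest at 6.33.

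FR3 uteri were then set against the other inseminated groups, which share the uterus's contact with the rich fraction. Between FR3 and FR2, which differ by the poor fraction, 1 gene of 17745 (0.00564%) was called by edgeR. It was GPCPD1, a phosphodiesterase that splits glycerophosphocholine (gene ID 100152321). GPCPD1 was at 28, 36, 42.1, 42.2 and 41.2 CPM in FR3 uteri, against 96.4, 82, 136, 109 and 93.9 CPM in FR2 uteri. The groups did not overlap (log2 -1.45 ± 0.21 SE, edgeR adjusted p = 0.0278), but leaving out any of 9 of these 10 libraries ended the call, which held without FR2_2. In the other groups GPCPD1 was at 63.7, 52.3, 50.1, 85.5 and 38.4 CPM in FR1 uteri and 48.7, 45.6, 34.1, 32.8 and 56.6 CPM in control uteri, and FR3 uteri overlapped both. Against control the value in FR3 uteri was log2 -0.20 ± 0.21 SE, edgeR adjusted p = 0.624.

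In all, 1307 genes (7.37%), GPCPD1 among them, had an unadjusted edgeR p below 0.05 between FR3 and FR2. DESeq2 called 21 genes, 7 higher and 14 lower. The splicing factor SRSF5 (log2 -0.74 ± 0.14 SE) and the transcription factor EGR2 (-1.22 ± 0.26) came next among lower values, each at an edgeR adjusted p of 0.488, and did not pass. Among higher values FAM96B (0.67 ± 0.18), AIFM2 (1.00 ± 0.23) and SAMM50 (0.52 ± 0.14) did not pass either, at adjusted p from 0.488 to 0.666.

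Between FR3 and FR1, which differ by the intermediate and poor fractions, edgeR called 0 genes, 1471 (8.29%) had an unadjusted p below 0.05, and DESeq2 called 12, 1 higher and 11 lower. The values with the smallest p were those of SLC5A9, a sugar transporter, at 0, 0.0228, 0, 0 and 0.0303 CPM in FR3 uteri, against 0.887, 0.639, 0.174, 1.08 and 0.137 CPM in FR1 uteri. FR3 libraries were near 0 and below all FR1 libraries, yet the gene did not pass (log2 -5.60 ± 1.06 SE, edgeR adjusted p = 0.586). The kinesin KIFC2 (-1.54 ± 0.31) and SNAPC4, a subunit of the complex that starts small nuclear RNA transcription (-0.79 ± 0.17), followed with the same adjusted p. On the higher side EMC3 (0.78 ± 0.20), FUCA2 (1.04 ± 0.26) and ERP44 (0.66 ± 0.16) did not pass, with an edgeR adjusted p of 0.586 each.

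The 27 genes named first in the comparison with control were not called between FR3 and either of the other inseminated groups. For the 13 higher genes FR3 minus FR1 ran from -0.63 to 1.31 on the log2 scale (median 0.39, 10 of 13 positive) and FR3 minus FR2 from -0.89 to 0.60 (median -0.01, 6 of 13 positive). For the 14 lower genes the ranges were -0.77 to 0.08 against FR1 (median -0.41, 12 of 14 negative) and -0.72 to 1.27 against FR2 (median -0.22, 11 of 14 negative). The lowest adjusted p among them was 0.586 against FR1 and 0.666 against FR2, which does not show that the groups are alike. CCL26 had the most positive FR3 minus FR1 value, with 5.95, 7.86, 10.2, 3.00 and 7.58 CPM in FR3 uteri against 1.68, 3.38, 5.14, 1.03 and 2.76 CPM in FR1 uteri (1.31 ± 0.44 SE, edgeR adjusted p = 0.586). In FR2 uteri CCL26 was at 6.45, 9.38, 3.56, 8.58 and 6.95 CPM. The 3 comparisons share the FR3 libraries, and the 27 genes were picked by their FR3 values, which can by itself tilt these sign counts.

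**Figure D5:**
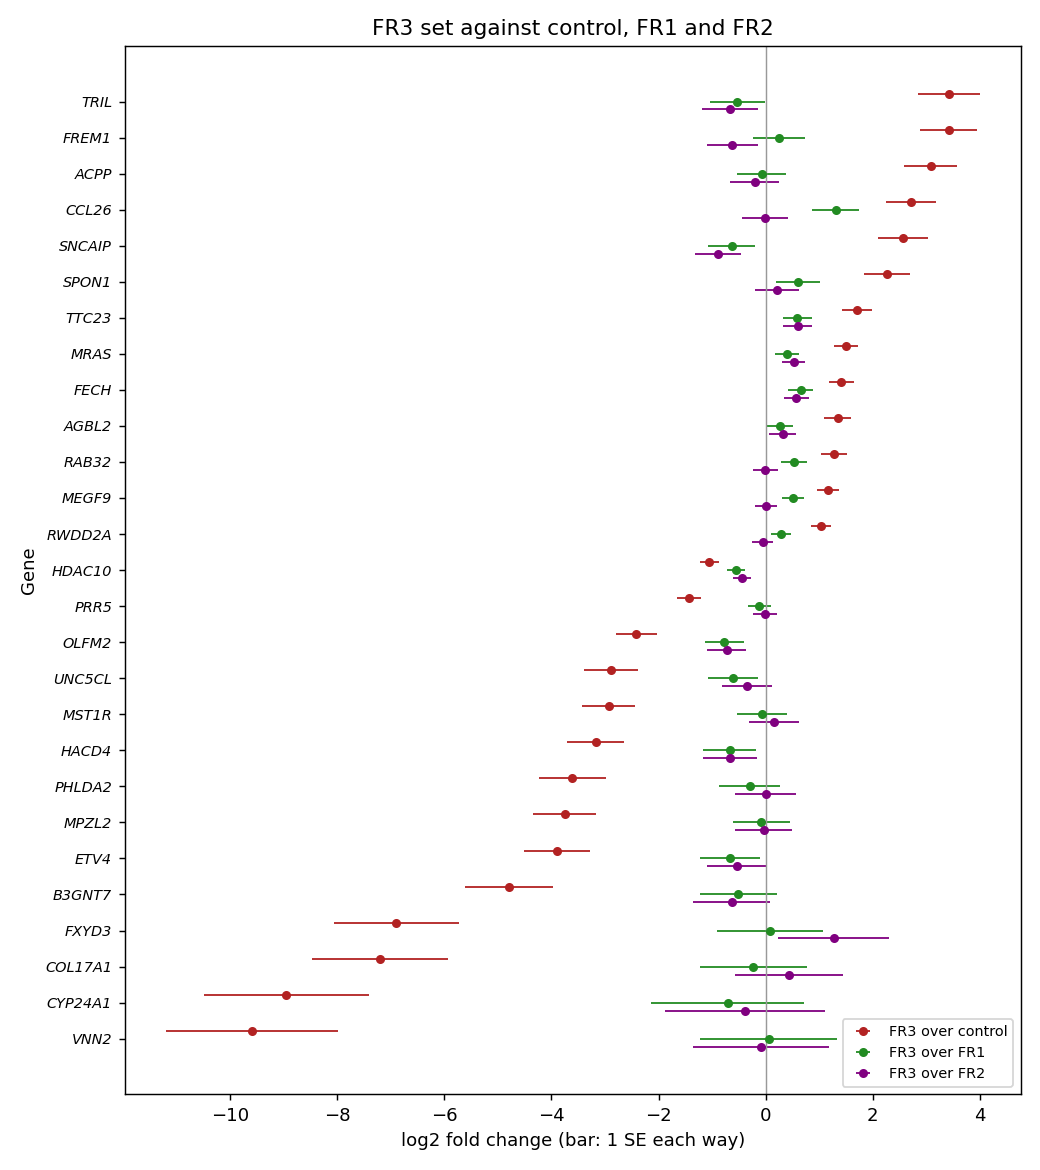
log2 fold change with 1 SE each way for the 27 named genes, FR3 over control (red), FR3 over FR1 (green) and FR3 over FR2 (purple). The red points run from -9.60 to 3.42, while the green and purple points lie between -0.89 and 1.31.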

How the data were processed

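Messenger RNA was sequenced from the uterus of 20 sows, 1 library each. The tools named in the submitters' processing notes are CASAVA, the aligner STAR (version 2.7.9a) and the quantifier Salmon (version 1.10.1). Build, annotation and strandedness are not given in the sources used here. What the authors deposited for each gene is an estimated count (expected count), unscaled; 87.2% of the values are whole, and all were rounded before testing. Salmon divides reads among similar transcripts, so near-identical or overlapping genes are uncertain. Rows without a gene name (24) held at most 0.0133% of a library's counts and were left out. The labels number sows 1 to 20 and the columns 1 to 5 within a group, so a column's group is known but not its sow. No pair of libraries looked like repeats of each other: the lowest chi-square per gene over 190 pairs was 44.4.

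Tests used the quasi-likelihood method of edgeR (version 4.0.16, R 4.3.3), 2-sided, with TMM factors and filterByExpr (17745 genes), on all 20 libraries in 1 fit (16 residual degrees of freedom, common biological coefficient of variation 0.532). Benjamini-Hochberg adjusted p below 0.05 was called. Levels are TMM-scaled CPM, not per length, so they are not compared between genes. SE is the log2 change divided by the square root of F. Up to 14 genes per direction were named, by smallest p among genes with a symbol other than a LOC number, a log2 change of at least 1 and a call in all 10 fits leaving out 1 library; per list, up to 4 such genes or else 2 called ones; a panel of further genes could be given in any case. The members and lists were chosen with earlier results of these data known. Alternatives used DESeq2 1.42.0, limma-voom (limma 3.58.1), other factors, filters and thresholds, and fewer libraries. P-values rest on a spread between sows that is shared by all 4 groups, although the control libraries were less alike than the FR3 libraries. Results on some items are not reported here.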

Additional observations from a re-analysis of the deposited data

Results flagged for a closer look

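Among the 72 genes named for FR3 against control, single libraries were compared with the other 4 of their group on the log2 CPM scale, in 144 groups, by Dixon's ratio of gap to range with a critical value of 0.71. 15 libraries passed it, and chance alone flags about 1 in 20 groups. FR3_3 and FR3_4 were the library in 4 cases each, FR3_5, CONTROL_3 and CONTROL_5 in 2 each and CONTROL_4 in 1.

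High FR3 libraries were CFD at 80.7 CPM in FR3_3 against 37.2 to 44.7 CPM in the other 4, GLI1 at 35.8 CPM in FR3_4 against 9.3 to 12.2 CPM in the other 4 and MMP8 at 14.6 CPM in FR3_5 against 0.258 to 0.456 CPM in the other 4. Beside these stood PRR5 at 21.1 CPM in FR3_3 against 12.7 to 14.3 CPM in the other 4. Low FR3 libraries were AGBL2 at 30.4 CPM in FR3_4 against 61.6 to 75.7 CPM in the other 4, ELF3 at 5.84 CPM in FR3_4 against 17.9 to 25.7 CPM in the other 4 and FGF7 at 0.153 CPM in FR3_3 against 1.03 to 1.97 CPM in the other 4. Beside these stood OXTR at 0.372 CPM in FR3_3 against 3.46 to 6.65 CPM in the other 4, S100A2 at 10.4 CPM in FR3_4 against 31.8 to 40.8 CPM in the other 4 and WNT4 at 0.546 CPM in FR3_5 against 1.73 to 2.00 CPM in the other 4. High control libraries were CXCL2 at 34.8 CPM in CONTROL_4 against 1.02 to 2.69 CPM in the other 4, EPCAM at 553 CPM in CONTROL_3 against 253 to 306 CPM in the other 4 and GBP2 at 61.5 CPM in CONTROL_3 against 6.00 to 6.95 CPM in the other 4. Low control libraries were MPZL2 at 3.2 CPM in CONTROL_5 against 24 to 50.2 CPM in the other 4 and S100A2 at 21.3 CPM in CONTROL_5 against 294 to 356 CPM in the other 4.

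GPCPD1 differed between the FR3 and FR2 groups, at log2 -1.45 in a test of that difference, and the call was lost without any of 9 of the 10 libraries.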

How the results depend on the processing

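Against the 758 genes called between FR3 and control, the count was 543 at a log2 change of at least 1, 797 with RLE factors, 743 with at least 10 counts in 10 libraries and 570 with no filter (162 higher, 408 lower). It was 1876 with DESeq2 (693 higher, 1183 lower), 295 with limma-voom (167 higher, 128 lower), 0 with a spread per group (lowest adjusted p 0.134), 0 with the 10 libraries alone and 0 at an adjusted p below 0.01, where the lowest was 0.0106. It was 526 without CONTROL_2 and CONTROL_3, 3 without CONTROL_3 and CONTROL_4 (2 higher, 1 lower) and 717 without FR3_4 and FR3_5 (400 higher, 317 lower). It was 1739 (853 higher, 886 lower) without CONTROL_1 and FR3_4, chosen after seeing the data. Leaving out 1 library gave 58 to 1891 calls, 28 to 735 higher and 30 to 1156 lower. Without FR3_4 the median over all genes tested moved to -0.12, and without FR3_4 and FR3_5 to -0.14. The cause of these changes was not tested.

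Between FR3 and FR2 the count of 1 became 21 with DESeq2 and 0 at an adjusted p below 0.01, and it was 0 to 1 when 1 library was left out, where the gene called without FR3_2 was not GPCPD1. Between FR3 and FR1 the count of 0 became 12 with DESeq2 and stayed 0 in every other alternative run.

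Of the 27 genes named first, 10 were lost with limma-voom, 1 without FR3_4 and FR3_5, and all 27 without CONTROL_3 and CONTROL_4, with a spread per group, the 10 libraries alone or the stricter threshold. Each of the 27 kept its direction in every alternative that tested it, and CYP24A1 was not tested with at least 10 counts in 10 libraries. For the 10 fits leaving out 1 library this was set in advance, because the 27 were picked by calls in the same direction there. The threshold settings share the values of the main fit, so direction could not change in them either. Leaving out 1 library, ESR1 lay between -0.22 and 0.28. ESR1 changed sign at -0.01 without CONTROL_2, -0.18 without CONTROL_3, -0.04 without CONTROL_5, -0.22 without FR3_4, -0.27 without FR3_4 and FR3_5 and -0.15 without CONTROL_1 and FR3_4. CSF3R ranged from -3.26 without CONTROL_5 to 0.63 without CONTROL_3, and changed sign also at 0.79 without CONTROL_3 and CONTROL_4. Without CONTROL_2 and CONTROL_3, signs changed for ESR1 (-0.28), CSF3R (1.01), CBR2 (0.10), OXTR (0.19), PTGS2 (0.53), STC1 (2.59) and VEGFA (0.34). Among the list counts recomputed, 509 moved by over 1.5 times, or to or from 0, and 1423 did not. Counts that stayed at 0 are among the 1423, so this split does not measure how stable the other counts were. No paired analysis was possible because the labels number the sows from 1 to 20 with no number shared between groups. Genes near 0 in FR3 uteri, such as CYP24A1, have folds limited by depth.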

Other observations

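Beyond the genes named by rule, 19 genes were called in all 10 fits that left out 1 library, and those given here were chosen after their values were seen. CXCR4, the receptor for the chemokine CXCL12, was at 7.2, 10.7, 15.6, 9.29 and 7.36 CPM in FR3 uteri, against 5.01, 2.61, 1.58, 4.00 and 2.04 CPM in control uteri, so that every FR3 library was above every control (log2 1.72 ± 0.33 SE, edgeR adjusted p = 0.0162). PLCB4, a phospholipase that acts downstream of G proteins, was at 121, 142, 75.3, 55.7 and 66.9 CPM in FR3 uteri, against 33.2, 46.1, 16.1, 21.2 and 44.5 CPM in control uteri. FR3_1 and FR3_2 were the highest, and the groups did not overlap (log2 1.52 ± 0.29 SE, edgeR adjusted p = 0.0162). MAVS, the mitochondrial adaptor of RNA virus sensing, had a log2 change of 0.81 ± 0.16 (edgeR adjusted p = 0.0162) and NFATC3, a calcium-regulated transcription factor, had one of 0.89 ± 0.17 (adjusted p = 0.0162), both without overlap.

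On the lower side BOP1, which takes part in making the large ribosomal subunit, was at 36.8, 36, 41.5, 36.3 and 39.1 CPM in FR3 uteri, against 58.9, 55.9, 81.1, 76.6 and 54.8 CPM in control uteri. The FR3 libraries were tightly grouped and all below the controls (log2 -0.79 ± 0.13 SE, edgeR adjusted p = 0.0106). GADD45A, a gene induced by DNA damage and growth arrest, was at 11.6, 12.1, 19.6, 25.2 and 22.7 CPM in FR3 uteri, against 42.4, 41.2, 117, 235 and 35.6 CPM in control uteri, again without overlap (log2 -2.37 ± 0.43 SE, edgeR adjusted p = 0.0129; -1.70 without CONTROL_4). PRR15 changed by -2.68 ± 0.50 (edgeR adjusted p = 0.0161; -1.81 without CONTROL_4) and ALS2CL by -2.28 ± 0.42 (adjusted p = 0.0152; -1.52 without CONTROL_4), with every control above every FR3 library.

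Some list members with few FR3 reads were also chosen after their values were seen. DMBT1, a secreted mucosal glycoprotein that binds bacteria, was at 0, 0, 0, 0.129 and 0 CPM in FR3 uteri, against 23.7, 0.511, 7.5, 4178 and 0.301 CPM in control uteri (log2 -14.53 ± 3.00 SE, edgeR adjusted p = 0.0174; -7.90 without CONTROL_4; not called without FR3_1 or FR3_2), and its fold depends on the prior count. SLPI, an inhibitor of neutrophil elastase, was at 2.69, 4.74, 21.1, 11.6 and 8.76 CPM in FR3 uteri, against 12.8, 6.82, 87.3, 1642 and 7.34 CPM in control uteri (log2 -5.17 ± 1.24 SE, edgeR adjusted p = 0.0282; -1.55 without CONTROL_4; not called without CONTROL_4, FR3_1, FR3_2 or FR3_5). KIT, the stem cell factor receptor of mast cells, was at 40.7, 26, 25.8, 28.2 and 12.8 CPM in FR3 uteri, against 9.53, 7.49, 5.82, 23.8 and 11.1 CPM in control uteri. CONTROL_4 lay inside the FR3 range, and the gene did not pass (log2 1.21 ± 0.38 SE, edgeR adjusted p = 0.0721).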
